A study of Mus musculus with 4 samples.

Results

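This report describes 10 long noncoding RNAs linked to the control of cell growth, measured in endothelial cells of the mouse heart with and without p53. The members are Neat1, Malat1, Meg3, H19, Gas5, Snhg1, Pvt1, Trp53cor1, Tug1 and Kcnq1ot1. They were chosen by symbol from a table of 24346 genes, and all 10 symbols were found. The tested libraries are ECp53KO_170 and ECp53KO_172, from mice labelled ECp53KO. The name is taken here to mean that p53 was lost in endothelium, since the title of the study speaks of endothelial p53. They are set against Ctrl_178 and Ctrl_182, which are labelled wild type. All 4 come from young mice on a C57BL/6 background, and the endothelial cells were sorted by flow cytometry and used without culture. The labels give neither the age in weeks, nor the driver or the deleted exons of the mutant allele, nor the sex of the mice or how many gave each library. The p-values set each difference against the spread between these libraries, which was estimated in part from all tested genes.

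Long noncoding RNAs are transcripts that act without being translated. Neat1 builds the nuclear bodies called paraspeckles, and Malat1 gathers in nuclear speckles, where splicing factors are stored. H19, Meg3 and Kcnq1ot1 come from imprinted regions, in which only the maternal or only the paternal copy is active. Gas5 and Snhg1 carry small nucleolar RNAs in their introns, and their spliced RNAs are short-lived. Trp53cor1, also called lincRNA-p21, lies beside Cdkn1a and was described in mouse cells as a direct target of p53. Neat1, Tug1 and Pvt1 have also been reported to respond to p53, while Meg3 has been reported to raise p53 activity.

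For 3 members a sequence shows how the RNA is made or read. The first is the end of the mature Malat1 RNA, shown because the libraries were made from polyadenylated RNA and Malat1 has no ordinary poly(A) tail. Its transcript is cut just before a small RNA called mascRNA, and U-rich stretches fold back on the A-rich end. The last 100 bases before mascRNA are on the minus strand of chromosome 19 (GRCm38.p6, from the GENCODE M21 transcript, chr19:5795982-5796081). Capitals mark an unbroken run of 12 A.
Malat1 3' end: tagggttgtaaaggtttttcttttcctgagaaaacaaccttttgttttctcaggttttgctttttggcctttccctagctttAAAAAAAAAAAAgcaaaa

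The promoter of Meg3 is shown because this RNA stood low in both ECp53KO libraries. The window runs from 250 bases before to 50 bases after the first annotated start on the plus strand (RefSeq, GRCm38.p6, chr12:109540746-109541045). Capitals mark TGACGTCA, a cAMP response element, and TATAAA, a core promoter element.
Meg3 promoter: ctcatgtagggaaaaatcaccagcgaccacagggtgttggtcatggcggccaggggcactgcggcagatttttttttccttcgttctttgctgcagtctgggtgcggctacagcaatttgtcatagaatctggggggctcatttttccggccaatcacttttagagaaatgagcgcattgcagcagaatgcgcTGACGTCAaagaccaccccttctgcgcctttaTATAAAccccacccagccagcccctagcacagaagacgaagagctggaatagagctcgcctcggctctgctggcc

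Searched over both strands, TGACGTCA is present in 1.79% of 32851 promoter windows of this length and TATAAA in 13.6%. The motifs do not overlap each other in the Meg3 window. RefSeq windows were found for 6 members, 8 windows in all. TGACGTCA was also in a window of Gas5 and TATAAA in that of Snhg1, while the other Meg3 window had neither. The p53 half-site, which reads the same on both strands, was in none of the 8, against 8.4% of all windows, and windows for Trp53cor1, H19, Neat1 and Pvt1 were not in the table. H19 is also the precursor of the microRNA miR-675, whose mature forms are given here from RefSeq (minus strand, chromosome 7) with the seed, bases 2 to 8, in capitals.
mmu-miR-675-5p: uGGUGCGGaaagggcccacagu
mmu-miR-675-3p: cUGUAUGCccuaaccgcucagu

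Levels are FPKM, fragments scaled by transcript length and library size, as deposited. Trp53 itself was at 4.41 and 2.45 FPKM in ECp53KO_170 and ECp53KO_172, against 52.1 and 28.8 FPKM in Ctrl_178 and Ctrl_182. Estimated depth was 11400000 and 9800000 fragments in ECp53KO_170 and ECp53KO_172, against 11000000 and 22500000 in Ctrl_178 and Ctrl_182. ECp53KO_170 stood apart: its deviations from the gene means went down with transcript length (Spearman's rho -0.48, against 0.17 to 0.31 in the other libraries, over genes, which are no independent replicates). The mean log2(FPKM + 1) of 81 ribosomal protein genes was 9.53 in ECp53KO_170 and 8.86 to 8.93 in the others. Xist, the RNA that coats the inactive X chromosome of female cells, was at 0.023 FPKM in ECp53KO_170 and 23 FPKM in ECp53KO_172, against 0.0352 FPKM in Ctrl_178 and 23.9 FPKM in Ctrl_182. Each group thus holds a library low in Xist and a library high in it, so its libraries are not repeats of a single sample. The 15 pan-endothelial markers, none at 0, summed to 7202 to 7265 FPKM in ECp53KO, against 7097 to 7118 FPKM in Ctrl, so markers of the labelled cell type were high in every library. In such bulk samples, fewer cells that express a gene and less RNA per cell cannot be told apart.

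The 10 RNAs spanned about 3 orders of magnitude. Averaged over all 4 libraries, Neat1 had the highest level at 145 FPKM, above 97.4% of all listed genes, and Malat1 followed at 64.6 FPKM. The libraries were made from polyadenylated RNA, and Malat1 has no ordinary poly(A) tail. These levels thus do not show which of these RNAs is more abundant in the cells. Snhg1 (52.7 FPKM), Gas5 (32.8 FPKM), Tug1 (16.1 FPKM) and H19 (13.5 FPKM) made up the middle. Kcnq1ot1 (0.577 FPKM), Pvt1 (0.495 FPKM), Trp53cor1 (0.284 FPKM) and Meg3 (0.147 FPKM) were each under 1 FPKM. The order from Neat1 through Malat1, Snhg1 and Gas5 to Tug1 held in 4 of 4 libraries with no overlap between neighbours. Tug1 and H19 overlapped in range, as did each neighbouring pair from Kcnq1ot1 down to Meg3.

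**Figure D1:**
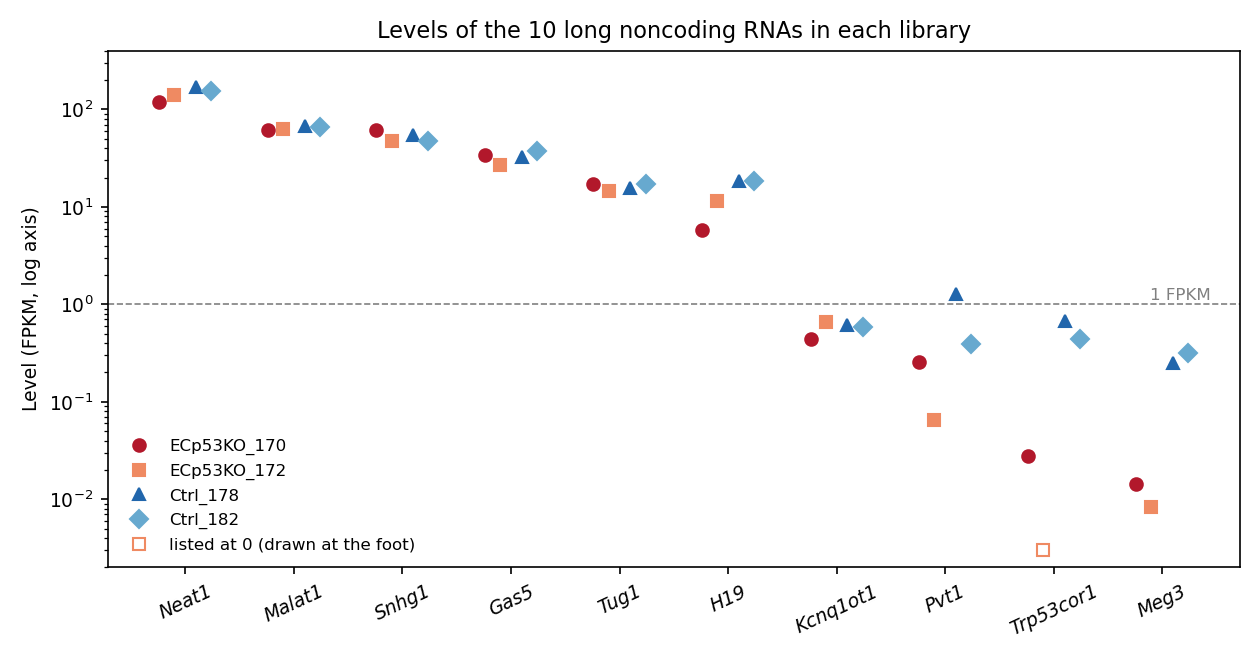
Level of each RNA in FPKM (log axis) in each of the 4 libraries; reddish points are ECp53KO libraries, blue points Ctrl libraries, the open square is a value listed at 0, and the dashed line is 1 FPKM. Trp53cor1 and Meg3 lie below 0.03 FPKM in both ECp53KO libraries and at 0.25 FPKM or more in both Ctrl libraries.

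For 6 of the 10 members both ECp53KO values lay below both Ctrl values (Neat1, Malat1, H19, Meg3, Pvt1 and Trp53cor1). For 0 members both lay above, and 4 overlapped. A filter of a mean of at least 1 FPKM left 6 members for the main test. Of these, 3 were lower without overlap, where 16.8% of the 11332 tested genes were lower and 19.1% higher in this way. Of the 4 members under 1 FPKM, 3 were lower without overlap, where 21.5% of the 2809 genes with a mean of 0.1 to under 1 FPKM were lower and 14.5% higher. Counts this small are not set against these shares by a test.

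By limma on log2(FPKM + 1), 0 of the 6 tested members passed an adjusted p of 0.05, and 0.115% of all tested genes did (3 genes or 0.0265% higher in ECp53KO, and 10 genes or 0.0882% lower). At an unadjusted p under 0.05, 1 member was lower and 0 higher, against 2.82% of tested genes lower and 1.97% higher. The median log2 fold change of the tested members was -0.15, with 5 of 6 negative, and that of all tested genes 0.01, with 48.3% negative. Trp53 itself did not pass adjustment in this fit (log2 fold change -3.2 ± 0.36, limma unadjusted p = 0.000259, adjusted p = 0.146). In other limma fits with all 4 libraries its adjusted p ran from 0.0129 without small RNA loci to 0.62 with no filter. A member that did not pass is therefore not shown to be unchanged. With 2 libraries a group, permuting the labels cannot reach 0.05, so no exact permutation test was run.

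Trp53cor1 (chromosome 17, 29057474 to 29079126, minus strand) is the member named for its link to p53. It was at 0.0279 FPKM in ECp53KO_170 and listed at 0 in ECp53KO_172, against 0.668 and 0.439 FPKM in Ctrl_178 and Ctrl_182. The ECp53KO libraries were near the limit of detection and the Ctrl libraries were not. On a transcript of 3218 nucleotides these values correspond to about 1 and 0 fragments in the ECp53KO libraries and 23.6 and 31.7 fragments in the Ctrl libraries. Such numbers rest on the estimated depth and cover few reads.

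To bring members under 1 FPKM into a fit, a pseudocount of 0.1 and a filter of 0.1 FPKM were used together, a setting chosen after seeing the data. Trp53cor1 then had a log2 fold change of -2.51 ± 0.61 (SE), an unadjusted limma p of 0.00759 and an adjusted p of 0.848. The same fit called 0.12% of 14141 genes, and an unadjusted p under 0.05 was found for 3.12% lower and 2.09% higher. A fitted fold of so rare an RNA depends on the pseudocount: with a pseudocount of 1 and the same filter of 0.1 FPKM it was -0.61 ± 0.16. Among the 2809 genes of 0.1 to under 1 FPKM, 3.17% had a ratio of ECp53KO to Ctrl means as low as that of Trp53cor1 or lower. Trp53cor1 passed the filter only through its Ctrl values, with means of 0.0139 FPKM in ECp53KO and 0.553 FPKM in Ctrl. The filter thus favoured a low ratio, and neither the fit nor this share is support for a difference.

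The genes on either side of Trp53cor1 stood closer to their Ctrl levels. Of 5 tested genes of the region and partners, by limma 0 passed adjustment. At an unadjusted p under 0.05, 1 was lower and 0 higher, against 2.82% and 1.97% of all tested genes. Cdkn1a, which encodes the cell cycle inhibitor p21 and starts 11797 bases away, stood at 353 and 387 FPKM in ECp53KO, against 528 and 668 FPKM in Ctrl (log2 fold change -0.68 ± 0.23, limma unadjusted p = 0.0301, adjusted p = 0.864). Srsf3, a splicing factor gene on the other side, stood at 130 and 116 FPKM in ECp53KO, against 108 and 111 FPKM in Ctrl (0.16 ± 0.16, limma adjusted p = 0.875). Relative to the Ctrl mean, Trp53cor1 was at 5.04% and 0% in the ECp53KO libraries while Cdkn1a was at 59.0% and 64.8%. Without overlap, Cdkn1a and Pi16 were lower and Srsf3 and Ppil1 higher, where 16.8% of all tested genes were lower and 19.1% higher. Pi16 was at 16.3 and 26.4 FPKM in ECp53KO, against 33.3 and 31.4 FPKM in Ctrl, and Ppil1 at 12.7 and 13 FPKM in ECp53KO, against 11 and 8.04 FPKM in Ctrl. Rab44 and Cpne5 were listed at 0 in all 4 libraries, and Fgd2 at 0 in both ECp53KO libraries and at 0.035 and 0.102 FPKM in Ctrl. Hnrnpk, which encodes the RNA-binding protein reported as a partner of Trp53cor1 in mouse cells, was at 254 and 195 FPKM in ECp53KO, against 203 and 207 FPKM in Ctrl.

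Meg3 (chromosome 12, 109540996 to 109571729, plus strand) is the maternally expressed RNA of the Dlk1 region and is known in endothelium and as a growth suppressor. It was at 0.0145 and 0.0083 FPKM in ECp53KO_170 and ECp53KO_172, against 0.25 and 0.315 FPKM in Ctrl_178 and Ctrl_182. Both ECp53KO values were far below both Ctrl values. Annotated lengths of 1896 to 14548 nucleotides make this 0.3 to 2.4 and 0.2 to 1.2 fragments in the ECp53KO libraries, and 5.2 to 39.8 and 13.4 to 102.9 fragments in the Ctrl libraries. With a pseudocount of 0.1 and a filter of 0.1 FPKM the log2 fold change was -1.77 ± 0.64 (limma unadjusted p = 0.0354, adjusted p = 0.848). With a pseudocount of 1 and the same filter it was -0.34 ± 0.14. Of the 2809 genes, 3.2% had a ratio of means as low or lower. Meg3 too passed the filter only through its Ctrl values, with means of 0.0114 FPKM in ECp53KO and 0.282 FPKM in Ctrl. Neither these fits nor this share is therefore support for a difference.

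The other genes of the imprinted region, apart from Wdr25, were under 1 FPKM in every library. Dlk1, which encodes a Notch-like protein and is read from the paternal copy, and Dio3 were listed at 0 in all 4 libraries. Rian, the noncoding RNA downstream of Meg3, did not share its pattern: it was at 0.145 and 0.554 FPKM in ECp53KO, against 0.151 and 0.0489 FPKM in Ctrl. Mirg was at 0 and 0.0854 FPKM in ECp53KO, against 0 in both Ctrl libraries, and Rtl1 was at 0 in all but Ctrl_178 (0.0168 FPKM). Begain was at 0.13 and 0 FPKM in ECp53KO, against 0 and 0.0494 FPKM in Ctrl, and Wdr25 at 1.59 and 1.18 FPKM in ECp53KO, against 2.97 and 1.18 FPKM in Ctrl. Mir770, a microRNA locus inside Meg3, was listed at 0 throughout.

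H19 (chromosome 7, 142575530 to 142578146, minus strand), the maternally expressed RNA that shares enhancers with Igf2, had the largest difference among the 6 tested members. It had 5.86 and 11.4 FPKM in ECp53KO_170 and ECp53KO_172, against 18.4 and 18.3 FPKM in Ctrl_178 and Ctrl_182. The Ctrl libraries were close to each other and the ECp53KO libraries were not. Group means were 8.63 ± 3.92 FPKM in ECp53KO, against 18.3 ± 0.0754 FPKM in Ctrl (SD, n = 2 each), which is 2.12 times as much RNA in Ctrl. On the log2 scale the difference was -1.07 ± 0.30 (SE), with a 95% confidence interval from -1.84 to -0.29, an unadjusted limma p of 0.0161 and an adjusted p of 0.864. Its depth was ample, with about 153 and 256 fragments in the ECp53KO libraries and 461 and 939 in the Ctrl libraries on a transcript of 2286 nucleotides.

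Without ECp53KO_170 the difference of H19 was -0.64 and without ECp53KO_172 it was -1.5, so its size depends on the library. With the length trend of each library removed it was -1.09. In the fit without small RNA loci and without ECp53KO_172, H19 passed (limma adjusted p = 0.0321), and over all 25 fits its adjusted p ran from 0.0321 to 1. Markers of other cell types in the sort were measured beside it. The 12 pericyte and smooth muscle markers summed to 188 and 153 FPKM in ECp53KO, against 102 and 121 FPKM in Ctrl, with 1 of 12 at 0 in ECp53KO_172. The 11 fibroblast markers summed to 63 and 55.1 FPKM in ECp53KO, against 57 and 61.1 FPKM in Ctrl, with 1 of 11 at 0 in ECp53KO_172. Gsn and Dcn made up most of that sum. Of 9 fibroblast markers tested 6 had a negative fold change. Without overlap, 3 were lower and 3 higher, where 16.8% of all tested genes were lower and 19.1% higher. Single markers were picked after their values were seen. Tcf21 was at 0.318 and 0 FPKM in ECp53KO, against 1.16 and 0.928 FPKM in Ctrl. Postn was at 1.22 and 1.93 FPKM in ECp53KO, against 3.81 and 2.26 FPKM in Ctrl. Dpt, Gsn and Pdgfra were the 3 that went the other way without overlap. Dpt was at 3.07 and 2.55 FPKM in ECp53KO, against 1.78 and 1.3 FPKM in Ctrl. Gsn was at 28.1 and 20 FPKM in ECp53KO, against 18 and 17.7 FPKM in Ctrl. Cardiomyocyte markers (12 of 12 in the table, none at 0) summed to 455 and 256 FPKM in ECp53KO, against 243 and 233 FPKM in Ctrl. Erythroid markers (9 of 10 in the table, 1 or 2 of them at 0) summed to 464 and 98.4 FPKM in ECp53KO, against 69.1 and 42.3 FPKM in Ctrl. Leukocyte markers summed to 11.2 and 13 FPKM in ECp53KO, against 17.3 and 9.8 FPKM in Ctrl, with 1 to 5 of 12 at 0. The 6 lymphatic endothelial markers, none at 0, summed to 46.3 and 60.7 FPKM in ECp53KO, against 65.9 and 50.3 FPKM in Ctrl. This sum was lowest in ECp53KO_170 as H19 was, but it overlapped between the groups. Lyve1, picked after its values were seen, was at 2.4 and 3 FPKM in ECp53KO, against 3.85 and 5.44 FPKM in Ctrl. The other lymphatic markers overlapped between the groups, and Ccl21a and Pdpn had higher means in ECp53KO. The part of these other cell types in the values of H19 was not tested.

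Igf2, the paternally expressed growth factor gene 72623 bases from H19, was likewise lowest in ECp53KO_170, with overlap between the groups. It was at 17.2 and 32.1 FPKM in ECp53KO, against 41.9 and 31.4 FPKM in Ctrl (log2 fold change -0.60 ± 0.33, limma adjusted p = 0.864). H19 divided by Igf2 was 0.34 and 0.355 in the ECp53KO libraries and 0.439 and 0.582 in the Ctrl libraries. Mrpl23 was at 84.4 and 58.4 FPKM in ECp53KO, against 69.3 and 49.1 FPKM in Ctrl, and Lsp1 at 0.701 and 0.868 FPKM in ECp53KO, against 1.63 and 0.848 FPKM in Ctrl. Igf2os was under 0.4 FPKM in every library, Nctc1 and Ins2 were listed at 0 throughout, and Tnnt3 was at 0 in all but Ctrl_178 (0.107 FPKM). The Mir675 locus was listed at 0, or at a value that rounds to 0, in all 4 libraries, so these data hold no reading of miR-675 itself.

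Other imprinted genes known for roles in growth were read beside H19 and Meg3. Of 23 listed, 13 could be tested, 8 of them with a negative fold change (median -0.01), and by limma 0 passed adjustment. With no adjustment, p was under 0.05 for 2 genes, both lower in ECp53KO, where 2.82% of all tested genes were lower at that p. Besides H19, which is on the list, the other was Plagl1, a zinc finger factor that regulates imprinted genes, at 0.467 and 1.24 FPKM in ECp53KO, against 2.73 and 2.12 FPKM in Ctrl (log2 fold change -0.91 ± 0.30, limma adjusted p = 0.864). Peg3 was at 1.83 and 2.9 FPKM in ECp53KO, against 3.59 and 3.97 FPKM in Ctrl. Impact was at 7.92 and 7.36 FPKM in ECp53KO, against 5.44 and 6.09 FPKM in Ctrl. Without ECp53KO_170, 12 of the 13 imprinted genes were negative (median -0.19), where 50.5% of all tested genes were. With the length trend removed it was 7 (median -0.07), where 49.7% of all tested genes were. In the insulin-like growth factor pathway 8 of 10 tested genes had a negative fold change (median -0.49), where 48.3% of all tested genes did, and 4 were lower without overlap, where 16.8% of all tested genes were. In ECp53KO_170, Igf2r, Igfbp5, Igfbp6, Igfbp7, Igf2 and, picked after their values were seen, Igf1r and Insr were lowest. Without this library, where 50.5% of all tested genes were negative, 9 of the 10 were, with a median of -0.18. These included Igf2r, the receptor that clears Igf2 (16.5 and 28.6 FPKM in ECp53KO against 36.2 and 29.4 FPKM in Ctrl), Igfbp5 (12 and 19.7 FPKM in ECp53KO against 24.3 and 26.1 FPKM in Ctrl), Igfbp6 (2.18 and 2.67 FPKM in ECp53KO against 4.14 and 3.12 FPKM in Ctrl) and Igfbp7 (747 and 803 FPKM in ECp53KO against 1311 and 964 FPKM in Ctrl). By limma 0 of the 10 passed adjustment, and 1, Igfbp5, was lower at an unadjusted p under 0.05, where 2.82% of all tested genes were.

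Pvt1 (chromosome 15, 62037986 to 62260215, plus strand) lies downstream of the oncogene Myc. It was at 0.255 and 0.0652 FPKM in ECp53KO_170 and ECp53KO_172, against 1.27 and 0.388 FPKM in Ctrl_178 and Ctrl_182. Ctrl_178 stood well above the other 3 libraries. At annotated lengths of 715 to 1563 nucleotides this is 2.1 to 4.6 and 0.5 to 1 fragments in the ECp53KO libraries and 10 to 21.8 and 6.2 to 13.6 fragments in the Ctrl libraries. The log2 fold change with a pseudocount of 0.1 and a filter of 0.1 FPKM was -1.76 ± 0.74 (limma unadjusted p = 0.0604, adjusted p = 0.848). In the same fit with small RNA loci also left out it was -1.01 without Ctrl_178 and -2.50 without Ctrl_182. Between the libraries low in Xist Pvt1 was at 0.255 FPKM in ECp53KO_170, against 1.27 FPKM in Ctrl_178, and between those high in Xist at 0.0652 FPKM in ECp53KO_172, against 0.388 FPKM in Ctrl_182. Any pairing of these values would give this direction, since the groups did not overlap. Of the 2809 genes in this range 5.91% had a ratio of means as low or lower.

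Myc, which encodes a transcription factor that drives growth and division, was lower without overlap as well, at 1.63 and 1.36 FPKM in ECp53KO, against 3.56 and 2.22 FPKM in Ctrl. Its log2 fold change was -0.62 ± 0.26 (limma unadjusted p = 0.0632, adjusted p = 0.864). Both Pvt1 and Myc were highest in Ctrl_178 and lowest in ECp53KO_172. Of the 7 tested genes of the region 0 passed and 1, Myc, was lower without overlap, where 16.8% of all tested genes were. Sqle was at 4.61 and 2.28 FPKM in ECp53KO, against 5.2 and 3.93 FPKM in Ctrl, Nsmce2 at 15.7 and 13.8 FPKM in ECp53KO, against 13.7 and 20.8 FPKM in Ctrl, and Fam84b at 12 and 23.1 FPKM in ECp53KO, against 11 and 17.2 FPKM in Ctrl. Asap1, Trib1 and Fam49b lay between 4.85 and 23 FPKM and overlapped between the groups, and Gsdmc was listed at 0.

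**Figure D2:**
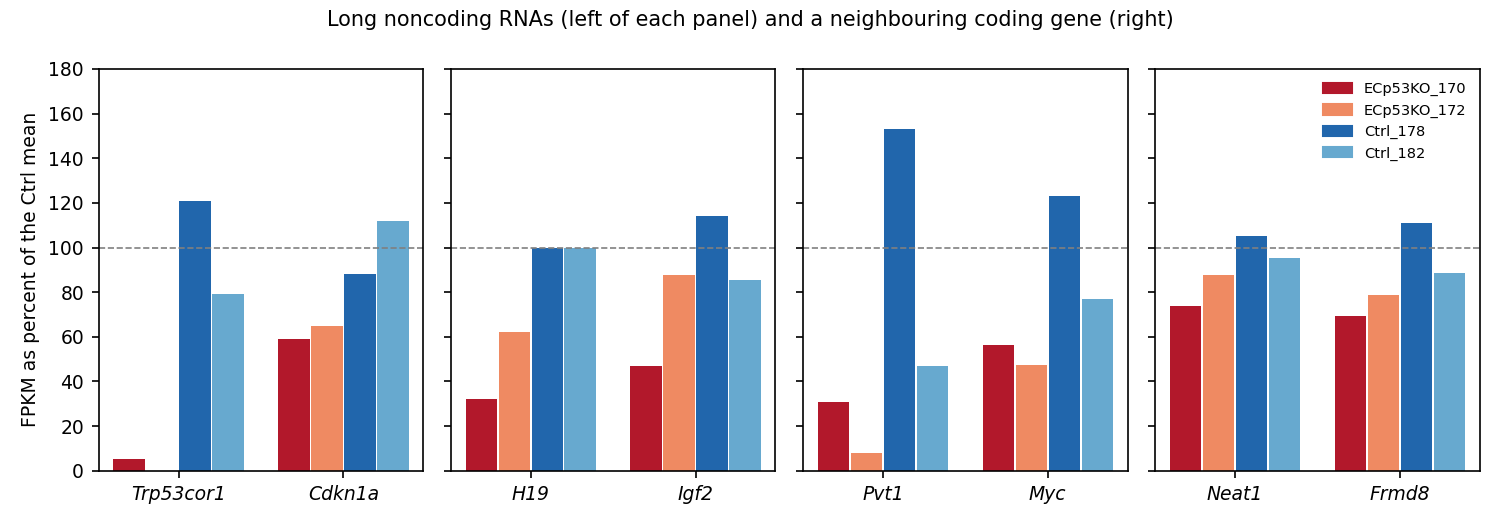
Level in each library as a percentage of the mean of the Ctrl libraries (FPKM, linear axis from 0) for 4 of the long noncoding RNAs and a neighbouring coding gene of each; reddish bars are ECp53KO libraries and blue bars Ctrl libraries. Trp53cor1 is at 5.04% and 0% in ECp53KO beside 59.0% and 64.8% for Cdkn1a, and H19 at 31.9% and 62.2% beside 46.9% and 87.6% for Igf2.

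Neat1 (chromosome 19, 5824708 to 5845480, minus strand), the scaffold of paraspeckles, was at 118 and 141 FPKM in ECp53KO_170 and ECp53KO_172, against 168 and 153 FPKM in Ctrl_178 and Ctrl_182. The groups did not overlap, but the gap between the nearest libraries was smaller than the spread within ECp53KO. Means were 130 ± 16.3 FPKM in ECp53KO, against 161 ± 10.5 FPKM in Ctrl (SD, n = 2 each), and the log2 fold change was -0.31 ± 0.18 with a 95% confidence interval from -0.77 to 0.15 (limma adjusted p = 0.864). It was -0.20 with the length trend removed, -0.18 without ECp53KO_170 and -0.44 without ECp53KO_172. A short and a long form of Neat1 share their start, only the long form (20771 nucleotides) builds paraspeckles, and a gene-level value does not separate them.

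Malat1 (chromosome 19, 5795690 to 5802672, minus strand), whose 3' end is printed above, had the narrowest relative range of the 10. It stood at 61.2 and 63.4 FPKM in ECp53KO, against 67.1 and 66.6 FPKM in Ctrl, a log2 fold change of -0.10 ± 0.14 with an interval from -0.47 to 0.27 (limma adjusted p = 0.906). The groups did not overlap, and the mean in ECp53KO was 0.932 times that in Ctrl. Neat1 divided by Malat1 was 1.93 and 2.23 in ECp53KO and 2.51 and 2.3 in Ctrl, in RNA captured by poly(A) selection. Frmd8, the coding gene 4224 bases on the other side of Neat1, was at 15 and 17 FPKM in ECp53KO, against 24.1 and 19.2 FPKM in Ctrl (-0.41 ± 0.18, limma adjusted p = 0.864).

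Genes for proteins that work with these nuclear RNAs were read beside them. Of 15 paraspeckle protein genes, 7 had a positive and 8 a negative fold change (median 0.00), and by limma 0 passed adjustment or had an unadjusted p under 0.05. Matr3, which encodes a nuclear matrix RNA-binding protein, was at 44.7 and 46.5 FPKM in ECp53KO, against 36.2 and 37 FPKM in Ctrl (log2 fold change 0.31 ± 0.14, limma adjusted p = 0.864). Tardbp, which encodes TDP-43, was at 35.2 and 32.7 FPKM in ECp53KO, against 29.3 and 30.2 FPKM in Ctrl, Ewsr1 at 87.5 and 94.2 FPKM in ECp53KO, against 109 and 96.9 FPKM in Ctrl, and Pspc1 at 9.86 and 7.88 FPKM in ECp53KO, against 7.97 and 7.09 FPKM in Ctrl. Among 15 genes of nuclear speckles and splicing (median -0.02) by limma 0 passed adjustment or had an unadjusted p under 0.05. Without overlap, 4 were higher and 4 lower, where 19.1% of all tested genes were higher and 16.8% lower. The splicing factor gene Srsf2 was at 90 and 101 FPKM in ECp53KO, against 119 and 119 FPKM in Ctrl, Srsf7 at 68.5 and 61.3 FPKM in ECp53KO, against 52.1 and 58.6 FPKM in Ctrl, and Son, the core of the speckle, at 51.3 and 68.9 FPKM in ECp53KO, against 72.7 and 71.4 FPKM in Ctrl. Srrm2 was at 32.1 and 61.7 FPKM in ECp53KO, against 58.5 and 65.7 FPKM in Ctrl, lowest in ECp53KO_170.

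**Figure D3:**
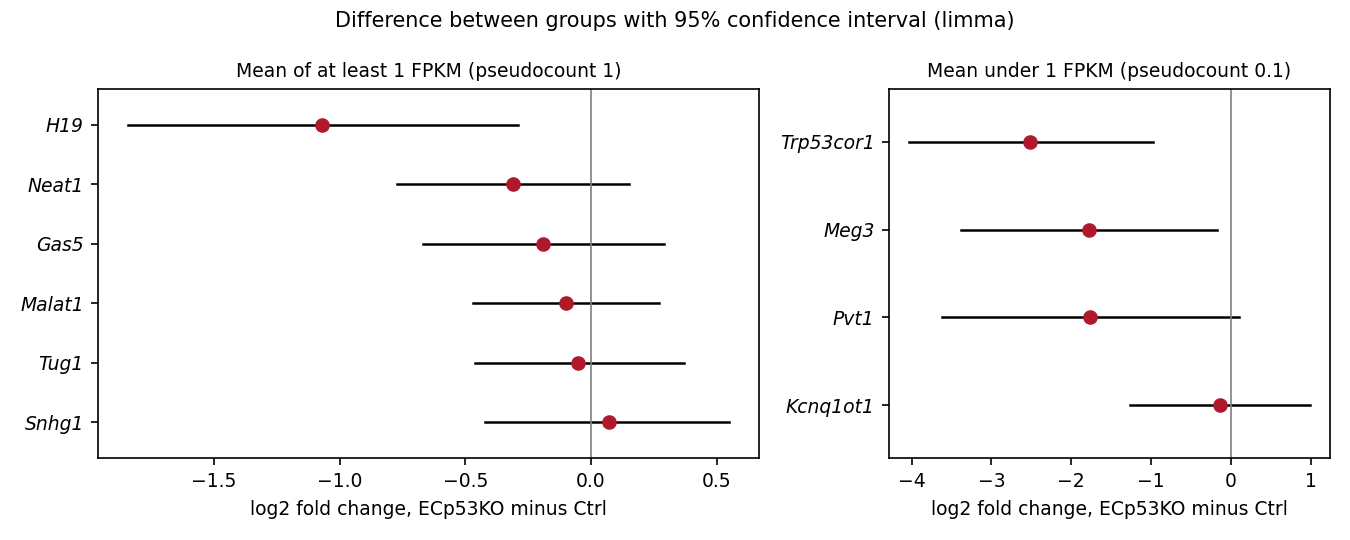
Log2 fold change, ECp53KO minus Ctrl, with its 95% confidence interval from limma, for the 6 members with a mean of at least 1 FPKM (left, pseudocount 1) and the 4 below it (right, pseudocount 0.1). The intervals of H19 (-1.84 to -0.29), Trp53cor1 (-4.03 to -0.98) and Meg3 (-3.38 to -0.17) lie below 0 before adjustment. None of the 10 passed adjustment over all genes. Trp53cor1 and Meg3 passed the filter of 0.1 FPKM only through their Ctrl values.

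The groups overlapped for the snoRNA host genes Gas5 and Snhg1. Gas5 (chromosome 1, 161034601 to 161038539, plus strand), named for its build-up in growth-arrested cells, was at 34.2 and 26.9 FPKM in ECp53KO_170 and ECp53KO_172, against 32.2 and 37.6 FPKM in Ctrl_178 and Ctrl_182. Its log2 fold change was -0.19 ± 0.19, with an interval from -0.67 to 0.29 (limma adjusted p = 0.875). With the length trend of each library removed it was -0.44 ± 0.16, with an interval from -0.84 to -0.03 (limma unadjusted p = 0.0407, adjusted p = 0.803), and it was -0.36 without ECp53KO_170 and -0.02 without ECp53KO_172. Snhg1 (chromosome 19, 8723487 to 8726326, plus strand) was at 61.1 and 47.1 FPKM in ECp53KO, against 54.9 and 47.8 FPKM in Ctrl. Its difference of 0.07 ± 0.19 on the log2 scale had an interval from -0.42 to 0.55 (limma adjusted p = 0.954). Both host genes were higher in ECp53KO_170 than in ECp53KO_172, and the ribosomal protein genes were highest in ECp53KO_170. The sign of Snhg1 depended on the setting, being -0.17 with the length trend removed and -0.05 after rescaling to TPM, a scaling under which the median of all genes was -0.10 in place of 0.01. Within Gas5 the locus of Snord47 was at 2705 and 1243 FPKM in ECp53KO, against 0 and 1097 FPKM in Ctrl, and within Snhg1 that of Snord22 at 101 and 77.7 FPKM in ECp53KO, against 106 and 68.6 FPKM in Ctrl. The 0 in Ctrl_178 can be a failed estimate. The loci are only 77 and 126 bases long, and the libraries were made from polyadenylated RNA. These values are therefore no reading of the small nucleolar RNAs themselves.

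Of 21 snoRNA host genes listed, 17 were in the table and 14 tested, 6 with a positive and 8 with a negative fold change (median -0.03). With the length trend removed 12 of the 14 were negative (median -0.18), where 49.7% of all tested genes were. Without ECp53KO_170 it was 11 (median -0.24), where 50.5% of all tested genes were. By limma 0 passed adjustment, and 1 was lower and 0 higher with an unadjusted p under 0.05, against 2.82% and 1.97% of all tested genes. That gene was Dancr, a noncoding RNA known to hold back differentiation, at 2.93 and 2.59 FPKM in ECp53KO, against 6.52 and 4.24 FPKM in Ctrl (log2 fold change -0.74 ± 0.25, limma adjusted p = 0.864). Snhg5 was at 15.9 and 14.7 FPKM in ECp53KO, against 16.2 and 19.7 FPKM in Ctrl, and Snhg10 at 4.01 and 1.73 FPKM in ECp53KO, against 2.09 and 1.14 FPKM in Ctrl. Genes of nonsense-mediated decay, the pathway that removes spliced Gas5 RNA, had a median of 0.02 over 15 tested genes, with 0 outside overlap, and by limma 0 passed adjustment or had an unadjusted p under 0.05. Among them Upf3b, a core factor of the pathway, was at 7.59 and 6.79 FPKM in ECp53KO, against 7.56 and 10.9 FPKM in Ctrl.

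Tug1 (chromosome 11, 3639785 to 3648814, minus strand), reported to bind Polycomb proteins, was at 17.1 and 14.5 FPKM in ECp53KO, against 15.7 and 17 FPKM in Ctrl. The log2 fold change was -0.05 ± 0.16 with an interval from -0.46 to 0.37 (limma adjusted p = 0.967), and it was 0.05 with the length trend removed. Morc2a, which the annotation places partly over Tug1 on the other strand, was at 9.83 and 11.5 FPKM in ECp53KO, against 12.2 and 12.3 FPKM in Ctrl (-0.19 ± 0.16). Since the libraries keep no strand, reads where these genes overlap cannot be told apart. Genes of Polycomb repressive complex 2 had a median of -0.01 over 10 tested, and by limma 0 passed adjustment or had an unadjusted p under 0.05. Ezh2, its methyltransferase in dividing cells, was at 3.32 and 2.95 FPKM in ECp53KO, against 4.51 and 4.51 FPKM in Ctrl (log2 fold change -0.41 ± 0.18, limma adjusted p = 0.864). Jarid2 was at 10.5 and 9.99 FPKM in ECp53KO, against 14.6 and 11.9 FPKM in Ctrl, and Aebp2 at 8.97 and 11.9 FPKM in ECp53KO, against 12.8 and 13.8 FPKM in Ctrl.

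Kcnq1ot1 (chromosome 7, 143213111 to 143296547, minus strand), the unspliced paternal RNA that silences its imprinted region, was at 0.442 and 0.659 FPKM in ECp53KO, against 0.615 and 0.592 FPKM in Ctrl. The groups overlapped, and with a pseudocount of 0.1 and a filter of 0.1 FPKM the log2 fold change was -0.13 ± 0.45 (limma adjusted p = 0.963). Its low FPKM comes with great length. The RefSeq gene spans 83437 bases and the GENCODE M21 transcript 93092, and on the longer of them the values stand for about 470 and 603 fragments in ECp53KO and 628 and 1238 in Ctrl. It runs inside Kcnq1 on the other strand, and unspliced Kcnq1 RNA cannot be told apart from it. Kcnq1 was at 3.2 and 4.73 FPKM in ECp53KO, against 5.52 and 2.92 FPKM in Ctrl.

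In the imprinted region around Kcnq1ot1, 8 genes were tested, 5 with a positive fold change (median 0.08). By limma 0 passed adjustment or had an unadjusted p under 0.05. Which of them Kcnq1ot1 silences in these cells was not tested. Cdkn1c, which encodes the cell cycle inhibitor p57, was at 177 and 104 FPKM in ECp53KO, against 111 and 130 FPKM in Ctrl (log2 fold change 0.17 ± 0.29, limma adjusted p = 0.917). Without overlap, 2 of the 8 were higher and 1 lower, where 19.1% of all tested genes were higher and 16.8% lower. The higher ones were Tssc4 and Nap1l4. Tssc4 was at 31.9 and 29.5 FPKM in ECp53KO, against 27.1 and 23.8 FPKM in Ctrl. Nap1l4 was at 69.8 and 62.7 FPKM in ECp53KO, against 60.9 and 56.2 FPKM in Ctrl. The lower one was Osbpl5, at 6.98 and 6.15 FPKM in ECp53KO, against 8.93 and 7.17 FPKM in Ctrl. The tetraspanin gene Cd81 was at 844 and 762 FPKM in ECp53KO, against 823 and 673 FPKM in Ctrl, Cars at 11.3 and 10.3 FPKM in ECp53KO, against 12.3 and 9.69 FPKM in Ctrl, and Slc22a18 at 3.13 and 3.88 FPKM in ECp53KO, against 2.8 and 3.94 FPKM in Ctrl. Phlda2, Ascl2, Th, Trpm5 and Tspan32 stayed under 0.6 FPKM in every library.

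**Figure D4:**
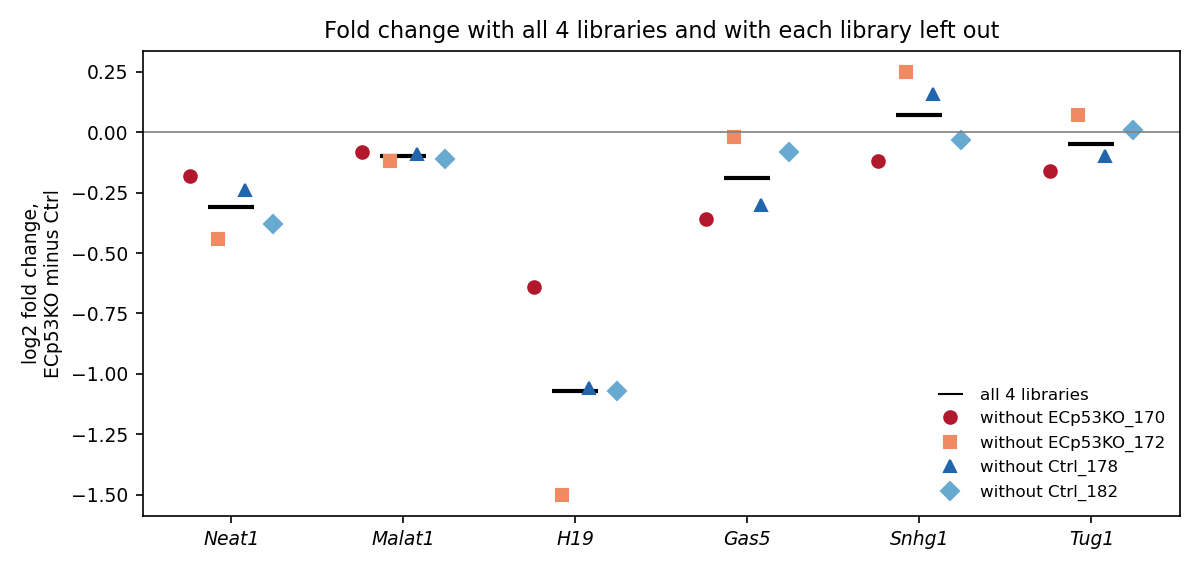
Log2 fold change, ECp53KO minus Ctrl, of the 6 members with a mean of at least 1 FPKM, with all 4 libraries (black bar) and with each library left out (coloured points). H19 stays between -1.5 and -0.64, while Snhg1 and Tug1 lie on both sides of 0.

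Other long noncoding RNAs from a list of 28 were compared with the members. Of these, 19 were in the table and 7 tested, with a median of -0.07. By limma 0 passed adjustment, and an unadjusted p under 0.05 was found for 1 higher and 2 lower genes. Of all tested genes, 1.97% were higher and 2.82% lower at that p. Dleu2, host of the growth-restraining microRNAs miR-15a and miR-16, was at 13.6 and 12.2 FPKM in ECp53KO, against 7.97 and 6.79 FPKM in Ctrl (log2 fold change 0.73 ± 0.17, limma adjusted p = 0.864). Mir22hg, host of miR-22, was at 5.63 and 5.03 FPKM in ECp53KO, against 8.3 and 12.1 FPKM in Ctrl (-0.81 ± 0.22). Airn, which is read across Igf2r on the other strand, was at 12.2 and 8.65 FPKM in ECp53KO, against 18.1 and 14.5 FPKM in Ctrl (-0.61 ± 0.22), and its reads cannot be told apart from those of Igf2r. Firre was at 8.64 and 15.2 FPKM in ECp53KO, against 16.7 and 17.4 FPKM in Ctrl.

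For scale, 28 target genes of p53 known from textbooks were also tested. The list was chosen with earlier results of these data known. Its median was -0.46 on the log2 scale, with 23 negative and 5 positive, where 48.3% of all tested genes were negative. Without overlap 17 were lower and 2 higher, where 16.8% of all tested genes were lower and 19.1% higher. By limma 12 were lower at an unadjusted p under 0.05, where 2.82% of all tested genes were, and 0 passed adjustment. The 4 genes given next had the smallest p of the list. The AKT inhibitor gene Phlda3 was at 8.96 and 8.66 FPKM in ECp53KO, against 58.8 and 37.2 FPKM in Ctrl. Sesn2, a stress-induced inhibitor of growth signalling, was at 1.03 and 0.725 FPKM in ECp53KO, against 7.02 and 4.5 FPKM in Ctrl. Eda2r, which encodes a TNF receptor relative, was at 3.66 and 2.57 FPKM in ECp53KO, against 15.5 and 13.9 FPKM in Ctrl. The secreted stress factor Gdf15 was at 0 and 0.319 FPKM in ECp53KO, against 13.8 and 6.14 FPKM in Ctrl. These 4 genes were picked by their p in this same comparison, so a wide gap between the groups was fixed by the choice. Sesn2 and Gdf15 also passed the filter of 1 FPKM only through their Ctrl values.

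The genes most like H19 and Neat1, the tested members with the largest fold changes, were sought among 11326 tested genes by the root mean square distance of log2(FPKM + 1), centred on each gene, over the 4 libraries. Closest to H19 were Eln, which encodes elastin (distance 0.048), Uprt (0.081) and Kctd11 (0.081), and only these 3 genes lay within 0.1. Eln stood at 19.8 and 35.8 FPKM in ECp53KO, against 52.8 and 55.1 FPKM in Ctrl. Closest to Neat1 were Kbtbd7 (0.01), Eif2ak3, which encodes the stress kinase PERK (0.014), and Tmem64 (0.016), and 583 genes lay within 0.1. Many genes thus came this close to Neat1 and few to H19, whose values span a wider range.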

How the data were processed

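RNA of endothelial cells sorted from mouse hearts was measured in 2 ECp53KO and 2 Ctrl libraries, prepared, per the labels' protocols, by poly(A) selection with an unstranded kit. The authors deposited FPKM per gene symbol. The submitters' processing notes name the build mm10 and the tools Cufflinks 2.2.1, TopHat2 2.1.0, Trimmomatic 0.36, FastQC 0.11.5 and bcl2fastq 2.17, without roles. Which gene annotation was used is not given there.

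Genes averaging 1 FPKM or more over all 4 libraries, 11332 in number, were tested on log2(FPKM + 1) with limma 3.58.1 in R 4.3.3 (intensity trend, two-sided, Benjamini-Hochberg over all tested genes, threshold 0.05, no covariate). The fit had 2 residual and 3.15 prior degrees of freedom and was tested on simulated data. Fold changes on this scale understate those of rare RNAs. Depth came from FPKM times length, taking its commonest value over 1037 genes below 0.5 FPKM with a single GENCODE M21 transcript over 2000 nucleotides, as 1 fragment. Positions are RefSeq's on GRCm38.p6, the same build as mm10.

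Genes were named by rule: all members, the genes of their regions, up to 4 genes of each other list with the smallest p, and the 3 genes most like H19 and Neat1. Nearest neighbours such as Frmd8 and Morc2a were added after their values were seen, as were Hnrnpk from the list of Trp53cor1 partners, Xist, and single markers of other cell types. Members and lists were chosen with earlier results of these data known.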

Additional observations from a re-analysis of the deposited data

How the results depend on the processing

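No paired fit was run, because the library numbers of ECp53KO and Ctrl have none in common and the labels give no sex. Libraries alike in Xist were set side by side for Pvt1 alone, with no fit. Of the 6 tested members, Neat1, Malat1, H19 and Gas5 had a negative fold change in each of 25 fits. Snhg1 was -0.05 after rescaling to TPM (median of all genes -0.10) and -0.17 with the length trend removed, and -0.12 to 0.25 on leaving out a library (-0.03 without Ctrl_182). Tug1 was 0.05 with the length trend removed and -0.16 to 0.07 on leaving out a library, and Kcnq1ot1 was -0.38 to 0.11. The cause of these reversals was not tested. The count of members past an adjusted p of 0.05 by limma was 0 in every fit with all 4 libraries and 0 to 1 on leaving out a library. Members lower without overlap numbered 6 to 9 on leaving out a library and 8 after rescaling to TPM, and members higher 0 to 2. The shares over all genes were not counted in these settings, so these counts have no background. With 1 library left in a group, such a position is easier to reach. Rescaling to TPM also moved the median of all genes to -0.10. Past an adjusted p of 0.05 by limma, 3 of all genes were higher. The count was 5 with a pseudocount of 0.1, 5 with 0.01, 5 with robust shrinkage and 1 with no filter. In place of 10 lower, 4 were called without small RNA loci, and 4 with a pseudocount of 0.1 and a filter of 0.1 FPKM as well. Leaving out a library gave 0 to 21 higher and 0 to 58 lower, and fits without ECp53KO_170, ECp53KO_172, Ctrl_178 or Ctrl_182 gave 18, 21, 1 and 4 higher and 13, 12, 58 and 34 lower. With small RNA loci also left out, the same omissions gave 5, 9, 12 and 5 higher and 4, 12, 16 and 17 lower. Where 1 library of a group remains, it is assumed to vary like the other group. The settings that combine a pseudocount of 0.1 with a filter of 0.1 FPKM were chosen after seeing the data. Depth limits Trp53cor1, Meg3 and Pvt1, which rest on few fragments in ECp53KO.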
